A study of Drosophila melanogaster with 6 samples.

Results

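The genes described here are 9 of the 13517 in the table, picked by name for their place in 1 pathway. They are the cofilin gene twinstar (tsr), the cofilin phosphatase gene slingshot (ssh), the cofilin kinase genes LIMK1 and center divider (cdi), the genes flr, capt and chic for proteins that work beside cofilin in taking filaments apart and recycling the monomers, and the genes bs and Mrtf for the transcription factor SRF and its coactivator. All 9 were present in the table and passed the filter on low values. RNA sequencing was done on muscle-enriched lysates of Drosophila melanogaster in 2 groups of 3 samples. The tsr knockdown group had the genotype Mhc-Gal4>UAS-twinstarRNAi and the control knockdown group the genotype Mhc-Gal4>UAS-mCherryRNAi, so that both carried the muscle driver Mhc-Gal4 and an RNA interference construct, in the controls against a fluorescent protein foreign to the fly. Each sample pooled 7 to 10 larvae late in the third instar, although the labels' tissue field says adult body wall, and the larval stage is followed here. Since the driver acts in muscle while the lysate also holds other cells, RNA from cells without the driver was counted in both groups.

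Cofilin binds the older, ADP-bound part of an actin filament and severs it. Phosphorylation of a serine near its start by LIM kinase or by TESK-type kinases such as the cdi product switches it off, and slingshot removes that phosphate. The flr product AIP1 speeds the breakdown of filaments decorated with cofilin, the capt product (cyclase-associated protein) strips cofilin from monomers and recharges them with ATP, and the chic product profilin delivers monomers to growing ends. In mammals, free actin monomers hold MRTF in the cytoplasm, and MRTF set free joins SRF on genes for actin and its partners. In flies bs is best known for its part in tracheal branching and in wing intervein cells.

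The reads in genes numbered 37375802 to 40714608 in the tsr knockdown samples and 37138289 to 41900871 in the control samples, so depth was similar. The values are scaled counts, which are read counts divided by the authors' size factor for the sample. Fold changes are on log2(scaled count + 1), tested by limma over 11720 genes with Benjamini-Hochberg adjustment. Control replicate 2 correlated with control replicates 1 and 3 at only 0.759 and 0.813 across genes, against 0.951 between replicates 1 and 3, and these 2 lay at the positive end of the first principal component, with the other 4 samples at the negative end. The 10 body wall muscle markers, which include Mhc, Mlc1, Mlc2 and Prm, were all expressed. They took 9.57% to 11.2% of all scaled counts in tsr knockdown samples and 5.78% to 7.49% in control samples. By limma 0 of these 10 passed the threshold, and 5 had groups that did not overlap, all higher in the knockdown. The groups did not overlap in 5 of 5 neuron markers, all higher in the knockdown, as in 16.8% of all tested genes, and 2 of them passed the threshold. Their sum was at 0.0265% to 0.0361% in tsr knockdown samples and at 0.00809% to 0.0131% in controls. The 7 epidermis markers, led by larval cuticle genes, took 2.94% to 5.39% in tsr knockdown samples and 9.66% to 13.1% in controls. By limma 2 of the 7 were lower, Lcp1 (-4.74, adjusted p = 0.00290) and Lcp2 (-4.19, adjusted p = 0.0228), and 0 higher. Of all tested genes 7.02% were lower. The markers not called were Cpr65Av (-2.67), Lcp4 (-1.14), Lcp3 (-0.38), Cpr49Ae (-0.02) and Cpr47Ef (1.09, at low counts). Of the 7 fat body markers 1 was higher by limma, Lsp1gamma (1.22, adjusted p = 0.0452), and 1 lower, Fbp1 (-5.55, adjusted p = 0.0122). Fbp1 had 8129, 2198 and 2424 scaled counts in tsr knockdown samples, against 97304, 405977 and 113193 in controls. The summed shares of the 7 were 3.04% to 3.37% in tsr knockdown samples and up to 3.43% in controls. They overlapped only through control replicate 2. The summed scaled counts were 1234580, 1145001 and 1461838 in tsr knockdown samples, against 675049, 1427091 and 639860 in controls. Of the 6 blood cell markers 2 were lower by limma and 0 higher, namely eater (-0.92, adjusted p = 0.0366) and He (-0.79, adjusted p = 0.0311). Summed, the 6 took 0.101% to 0.127% in tsr knockdown samples and 0.0903% to 0.119% in controls, and the 2 trachea markers 0.00250% to 0.00311% in tsr knockdown samples and 0.00211% to 0.00274% in controls. The 6 salivary gland markers were uneven between samples of 1 group, at 5.65e-05% to 0.0290% in tsr knockdown samples and 8.35e-05% to 0.245% in controls. No marker on these lists was at 0 in all 6 samples. In lysates, fewer cells of a type and less RNA per cell cannot be told apart. The part of these shifts in the results below was not tested. Scaling to the muscle markers, used below, does not separate them, since these markers come from the cells in which the driver acts. The log2 fold changes of the 10 markers themselves ranged from 0.13 to 0.996.

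The targeted gene was lower in every knockdown sample. The gene tsr (FBgn0011726, chromosome 2R, 24044453 to 24046805, minus strand) had 6966, 7070 and 5035 scaled counts in the tsr knockdown samples, against 39133, 29266 and 25816 in the control samples. The highest knockdown sample was thus far below the lowest control sample. The knockdown mean came to 20.2% of the mean in controls. On the log2 scale tsr changed by -2.30, with a 95% interval from -2.82 to -1.78 (limma adjusted p = 0.00525). By the size of its fold change tsr stood at the 88.8th percentile of tested genes, and it ranked 76 by p-value. The exact permutation test gave p = 0.1, the smallest that 3 samples against 3 allow. The annotated exons of tsr share 6 bases (0.816% of its exon length) with IntS1, a gene for an Integrator subunit on the opposite strand, which had 1715 ± 93.2 scaled counts in tsr knockdown samples and 1633 ± 137 in controls (SD, n = 3 each). The shared stretch is thus short beside the rest of the tsr transcript. Whether the tsr RNA that remained came from muscle or from cells without the driver cannot be told apart in these lysates.

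Of the 9 genes, 2 had an adjusted p-value under 0.05, tsr lower and Mrtf higher, and 11.6% of all tested genes did so (4.58% higher and 7.02% lower in the knockdown). The 3 samples of each group did not overlap in 4 of the 9 genes, namely tsr, chic, bs and Mrtf, where 36.4% of all tested genes had such a separation (16.8% with the knockdown higher and 19.6% with it lower). Without tsr, the target of the knockdown, 1 of the other 8 genes was called. Groups did not overlap in 3 of those 8 (37.5%), near the share of all tested genes. Called genes made up 10.5% of those tested by edgeR and 24.4% by DESeq2. Apart from tsr, fold changes of these genes were small, between -0.38 and 0.48 on the log2 scale, with a median of -0.06 for the 8 genes, beside 0.06 for all tested genes.

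**Figure D1:**
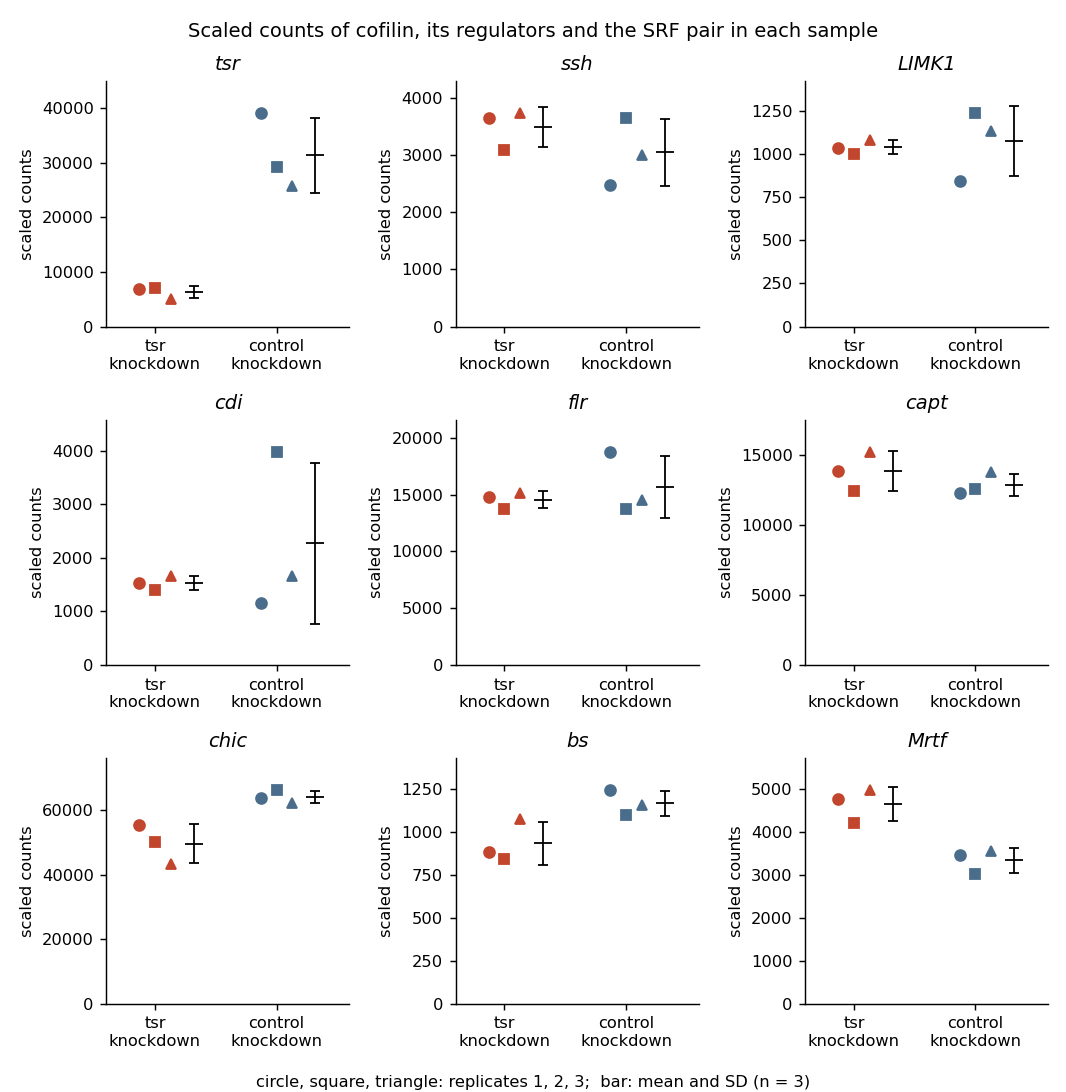
Scaled counts (vertical axis, from 0) of each of the 9 genes in the 3 tsr knockdown samples (left, red) and the 3 control samples (right, blue), with the mean and SD beside each group. The knockdown samples lie below every control for tsr, chic and bs and above every control for Mrtf, and the control value of 3985 for cdi in replicate 2 lies far above the other 5 samples.

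The enzymes that switch cofilin on and off were examined next. The phosphatase gene ssh (FBgn0029157, chromosome 3R, 24938710 to 24944956) had 3655, 3084 and 3736 scaled counts in the tsr knockdown samples, against 2477, 3655 and 3008 in the control samples. Its groups overlapped, and the log2 fold change of 0.21 had a 95% interval from -0.20 to 0.62 (limma adjusted p = 0.459), an interval that spans 0. The kinase gene LIMK1 (FBgn0283712, chromosome X, 12584385 to 12592193) had 1038, 1001 and 1081 scaled counts in the tsr knockdown samples, against 847, 1239 and 1136 in the control samples. The 3 knockdown values lay inside the range of the controls, and the log2 fold change was -0.03, with an interval from -0.43 to 0.38 (limma adjusted p = 0.923).

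The second kinase gene, cdi (FBgn0004876, chromosome 3R, 19044882 to 19094270), had 1530, 1404 and 1660 scaled counts in the tsr knockdown samples, against 1167, 3985 and 1664 in the control samples. The lower mean of the knockdown rested on control replicate 2. The log2 fold change of -0.37 (95% interval from -1.44 to 0.70, limma adjusted p = 0.602) became 0.13 without that replicate (adjusted p = 0.653). Against that replicate alone the difference was -1.38, given as a value with no test since 1 control sample has no spread of its own. The same sample was the highest of the 3 controls for ssh and LIMK1 also. Control replicate 1 was the lowest control for all 3 of these enzyme genes and for capt, and the highest for tsr, flr and bs. In the knockdown group the 3 enzyme genes were even, with coefficients of variation of 10.2% for ssh, 3.86% for LIMK1 and 8.34% for cdi. In the controls they were 19.4% for ssh, 18.9% for LIMK1 and 66.2% for cdi. Over all tested genes the median coefficient of variation was 16.5% in tsr knockdown samples and 24.7% in controls.

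Of the proteins that act beside cofilin, AIP1 and cyclase-associated protein showed no difference past the threshold. The AIP1 gene flr (FBgn0260049, chromosome 3L, 13412843 to 13416453) had 14826, 13771 and 15111 scaled counts in the tsr knockdown samples, against 18789, 13736 and 14535 in the control samples. Only control replicate 1 stood above the knockdown range, and without it the log2 fold change of -0.09 (interval from -0.45 to 0.26, limma adjusted p = 0.696) was 0.04 (adjusted p = 0.820). The gene capt (FBgn0261458, chromosome 2L, 1151678 to 1158262) had 13887, 12465 and 15256 scaled counts in the tsr knockdown samples, against 12287, 12583 and 13782 in the control samples. Its groups overlapped at a log2 fold change of 0.10, with an interval from -0.18 to 0.39 (limma adjusted p = 0.585). Exons of capt share 87 bases (2.69% of its exon length) with Vps29, a retromer subunit gene on the opposite strand, at 540 ± 33.6 scaled counts in tsr knockdown samples and 684 ± 28.8 in controls (SD, n = 3 each; limma adjusted p = 0.123).

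The profilin gene chic (FBgn0000308, chromosome 2L, 5972115 to 5981018) had 55348, 50167 and 43328 scaled counts in the tsr knockdown samples, against 63839, 66287 and 62341 in the control samples. Every knockdown sample was below every control, and the controls were close together, with a coefficient of variation of 3.10%, at the 2.37th percentile of tested genes. Its knockdown level averaged 77.3% of that in controls. The log2 fold change of -0.38 (SE 0.14, 95% interval from -0.73 to -0.03) did not pass after adjustment over all genes by limma (adjusted p = 0.147), while DESeq2 on the recovered reads gave -0.38 with an adjusted p of 0.0125. The range of the limma adjusted p over the 6 fits that each left out a sample was 0.204 to 0.271.

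The transcription factor and its coactivator had opposite signs. The SRF gene bs (FBgn0004101, chromosome 2R, 24342861 to 24376473) had 883, 840 and 1073 scaled counts in the tsr knockdown samples, against 1243, 1096 and 1156 in the control samples. The groups did not overlap, but knockdown replicate 3 lay close to the lowest control, and the log2 fold change of -0.33 (interval from -0.66 to 0.00) did not pass the threshold (limma adjusted p = 0.173). An antisense transcript gene within the bs locus, listed as lncRNA:CR44811, shares no exon bases with bs and had 108 ± 30.6 scaled counts in tsr knockdown samples and 155 ± 35.2 in controls (SD, n = 3 each; limma adjusted p = 0.330). CG44812, also within bs on the opposite strand, was at 0 to 0.997 scaled counts in tsr knockdown samples and 0 to 2.71 in controls and was not tested.

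The coactivator gene Mrtf (FBgn0052296, chromosome 3L, 2717615 to 2766536) had 4750, 4205 and 4963 scaled counts in the tsr knockdown samples, against 3443, 3001 and 3536 in the control samples. Every knockdown sample was above every control, and the knockdown mean was 1.39 times that in controls. Its log2 fold change of 0.48 had an interval from 0.20 to 0.76, and the adjusted p-value lay just under the threshold (limma adjusted p = 0.0493). That call was lost in all 6 fits that left out a sample (log2 fold change 0.41 to 0.55, adjusted p = 0.0708 to 0.186) and with edgeR's quasi-likelihood test (0.46, adjusted p = 0.0600), while DESeq2 gave 0.47 with an adjusted p of 0.00428. With samples of the same number as a replicate block the adjusted p was 0.111.

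**Figure D2:**
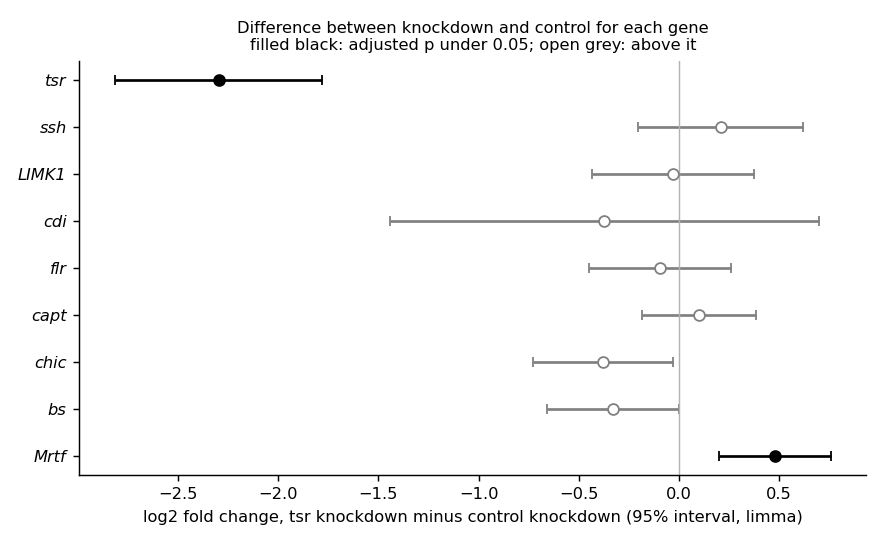
The log2 fold change (horizontal axis) of each of the 9 genes, tsr knockdown minus control knockdown, with its 95% interval from limma. The interval of tsr, from -2.82 to -1.78, lies below all 8 others, and the interval of cdi, from -1.44 to 0.70, is the widest.

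Ratios of a pair of genes within a sample do not depend on how the libraries are scaled, and 4 were computed on scaled counts per kilobase of annotated exon. The ratio of Mrtf to bs was 3.01, 2.80 and 2.59 in the tsr knockdown samples, against 1.55, 1.53 and 1.71 in the control samples. Mrtf was higher and bs lower in every knockdown sample than in every control, so the groups had to separate in this ratio. The mean ratio was 1.75 times that of the controls, and its separation adds nothing to that of the 2 genes. The difference in log2 ratio was 0.81, with a range of 0.75 to 0.86 over the fits without 1 sample. The ratio of tsr to chic was 0.451, 0.505 and 0.416 in the tsr knockdown samples, against 2.20, 1.58 and 1.48 in the control samples. Per kilobase of exon tsr was thus above chic in every control and in no knockdown sample. That order rests on the exon lengths, which join all annotated exons of a gene (735 bases for tsr and 2632 for chic). In scaled counts without that division chic was above tsr in every sample of both groups, so numbers of transcripts were not compared.

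The ratio of the phosphatase gene ssh to the kinase gene LIMK1 was 4.02, 3.52 and 3.95 in the tsr knockdown samples, against 3.34, 3.37 and 3.03 in the control samples. The groups did not overlap, but the gap between the nearest samples was narrow, and the difference in log2 ratio was 0.24, with a range of 0.19 to 0.30 over the same fits. The ratio of cdi to LIMK1 was 1.31, 1.25 and 1.37 in the tsr knockdown samples, against 1.23, 2.87 and 1.30 in the control samples, where replicate 2 alone stood out. Exact permutation tests gave p = 0.1 for the first 3 ratios (adjusted p = 0.133 over the 4) and 0.9 for cdi to LIMK1, and 0.1 is the smallest value the design allows. For Mrtf to bs that value followed from the separation of the single genes. For tsr to chic it followed from the fall of tsr, the target of the knockdown.

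**Figure D3:**
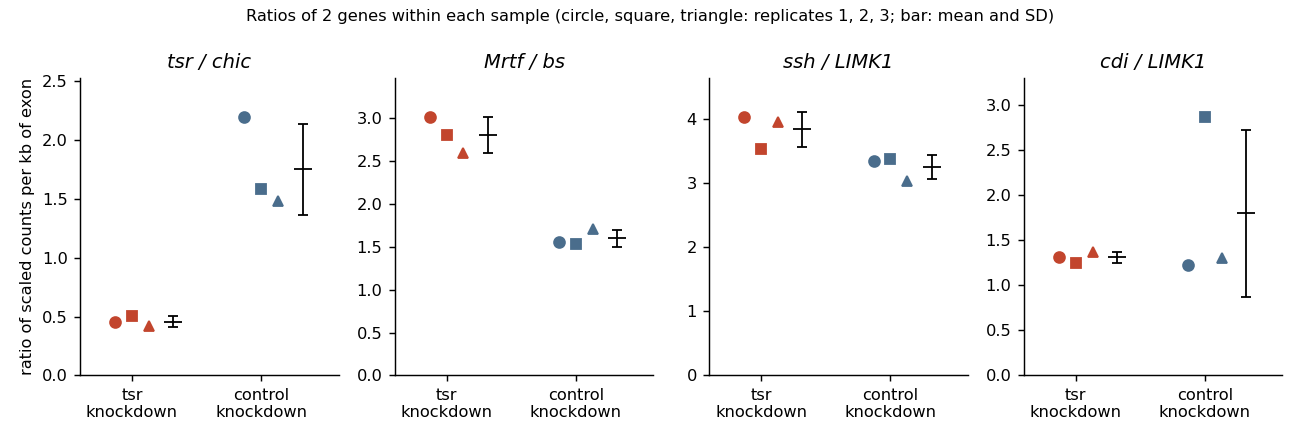
Ratios of scaled counts per kilobase of exon for 4 gene pairs (vertical axes, from 0) in the tsr knockdown samples (left, red) and the control samples (right, blue), with mean and SD. The Mrtf to bs ratio is at least 2.59 in the knockdown samples and at most 1.71 in the controls, and the cdi to LIMK1 ratio is even except for control replicate 2.

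Set in order of level per kilobase of annotated exon, the genes kept nearly the same ranks in both groups. In the tsr knockdown samples chic came first with 18851 ± 2291 scaled counts per kilobase, then tsr with 8649 ± 1559, flr with 6218 ± 301 and capt with 4290 ± 432 (SD, n = 3). In the control samples tsr came first with 42728 ± 9403, then chic with 24375 ± 757, flr with 6695 ± 1159 and capt with 3985 ± 245 (SD, n = 3). No 2 neighbours among these 4 genes overlapped in either group. These 4 genes thus stood well above the genes for the enzymes, the transcription factor and its coactivator. The means of those genes ranged from 179 for LIMK1 to 687 for ssh in the knockdown samples. In the control samples they ranged from 185 for LIMK1 to 599 for ssh. Below ssh, the order in both groups was Mrtf, cdi, bs and LIMK1. In the knockdown samples ssh, Mrtf and cdi were separate from one another, while cdi overlapped bs and bs overlapped LIMK1. In the controls cdi, from 179 to 611, overlapped ssh, Mrtf, bs and LIMK1, so its place in the order is uncertain there, and bs was separate from LIMK1.

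The sign of some small changes depended on how the libraries were scaled. After each sample was scaled to the median of its 10 body wall muscle markers, the median log2 fold change of all genes moved to -0.52 from 0.06, and tsr was at -2.88. Under that scaling the sign turned for Mrtf (-0.10, limma adjusted p = 0.701), ssh (-0.37, adjusted p = 0.270) and capt (-0.48, adjusted p = 0.116). Relative to the shifted median of all genes these values are on the same side as before. The genes bs (-0.91, adjusted p = 0.0288), chic (-0.96, adjusted p = 0.0266) and flr (-0.68, adjusted p = 0.0420) passed the threshold there, when 19.0% of all genes did. Among all tested genes 181 were then higher and 2054 lower, against 537 and 823 as deposited and 666 and 629 under upper-quartile scaling. Under TMM, upper-quartile and equal-total scaling Mrtf stayed between 0.45 and 0.57 and chic between -0.41 and -0.28, and LIMK1 turned to 0.07 under upper-quartile scaling.

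**Figure D4:**
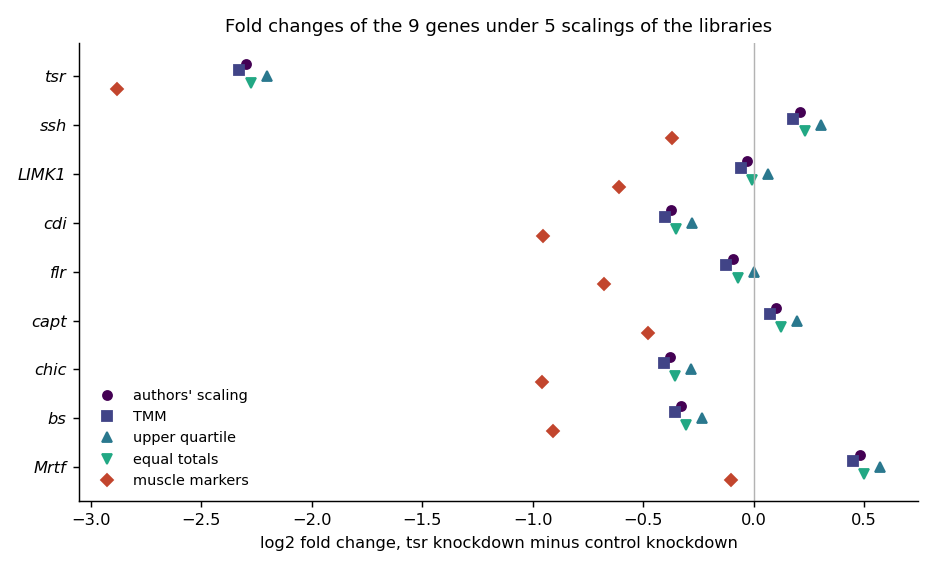
The log2 fold change (horizontal axis, tsr knockdown minus control knockdown) of the 9 genes under 5 scalings of the libraries. Scaling to the muscle markers (red diamonds) moves every gene to the left by about the shift of the median of all genes, to -2.88 for tsr and -0.10 for Mrtf, while the other 4 scalings lie close together.

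Among the 12 of 13 listed genes found in the table for other factors of actin turnover, 5 passed the threshold, 4 lower and 1 higher, with a median log2 fold change of -0.27. Of all tested genes 11.6% passed (7.02% lower and 4.58% higher), with a median of 0.06. The actobindin-like gene cib, whose product binds actin monomers, had 6080, 7743 and 5670 scaled counts in the tsr knockdown samples, against 14935, 24389 and 16807 in the control samples. This was the deepest fall of the list, at -1.51 (SE 0.22, limma adjusted p = 0.0154). Both capping protein subunit genes fell. The beta subunit gene cpb had 3300, 3218 and 3234 scaled counts in the tsr knockdown samples, against 5036, 4876 and 5080 in the control samples (log2 fold change -0.62, limma adjusted p = 0.0119). The alpha subunit gene cpa had a log2 fold change of -0.53 (limma adjusted p = 0.0267), and Abp1, for an actin-binding adaptor, had -0.86 (limma adjusted p = 0.0145). The coronin gene coro rose, with 37953, 28416 and 41103 scaled counts in the tsr knockdown samples, against 19205, 17402 and 18602 in the control samples (log2 fold change 0.94, limma adjusted p = 0.0234), and it was at 0.36 (adjusted p = 0.140) when scaled to the muscle markers. The other 7 genes (twf, GMF, pod1, Gel, qua, tmod and Mical) lay between -0.39 and 0.22. The calls were fewer without tsr knockdown replicate 1 (0 lower and 0 higher), tsr knockdown replicate 2 (2 lower), tsr knockdown replicate 3 (0 higher) or control replicate 3 (1 lower and 0 higher), and with the replicate block 1 gene was lower and 0 higher.

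Of 20 fly relatives of genes that SRF and MRTF activate in mammals, 7 passed the threshold, 3 higher and 4 lower, beside 11.6% of all tested genes. Their median log2 fold change was 0.46, beside 0.06 for all tested genes. Groups did not overlap in 16 of the 20, 9 with the knockdown higher and 7 with it lower. Of all tested genes 36.4% did not overlap (16.8% higher and 19.6% lower). Among the 9, Act79B and Act88F had few reads. Act79B had means of 27.9 scaled counts in tsr knockdown samples and 13.9 in controls, and Act88F 35.6 and 9.25. Act87E, a muscle actin gene, had 415324, 305968 and 437518 scaled counts in the tsr knockdown samples, against 66992, 52678 and 60916 in the control samples, a log2 fold change of 2.67 (SE 0.22, limma adjusted p = 0.00390). It was the only one of the 7 that kept its call under every alternative and in all 6 fits that left out a sample. The talin gene rhea, at 1.09 (limma adjusted p = 0.0167), and the vinculin gene Vinc, at 1.01 (limma adjusted p = 0.0133), were also higher. Talin and vinculin link integrins to actin at muscle attachments. Annotated exons overlap a neighbour on the opposite strand over 3.02% of the exon length of Act87E and 4.31% of that of cher, and among the turnover genes over 5.42% for cpa, so their counts are uncertain to that extent.

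The 4 lower genes of that list included both cytoplasmic actin genes. Act5C had 52464, 63862 and 48480 scaled counts in the tsr knockdown samples, against 84368, 104741 and 97050 in the control samples, a log2 fold change of -0.80 (limma adjusted p = 0.0389). That call was lost with no filter (adjusted p = 0.0551), upper-quartile scaling (0.0549), equal totals (0.0645) and the replicate block (0.112), and it held in 1 of the 6 fits without 1 sample, the others having a limma adjusted p of 0.0548 to 0.149. Act42A had 8694, 11066 and 6385 scaled counts in the tsr knockdown samples, against 17642, 19748 and 19614 in the control samples, a log2 fold change of -1.16 (limma adjusted p = 0.0256). The filamin gene cher was at -0.93 (limma adjusted p = 0.0187), and the myosin light chain gene sqh, named after its value was seen, at -0.74 (limma adjusted p = 0.0389). The sqh call held in 1 of the 6 fits without 1 sample, that of cher in 3 and that of Act42A in 4. With the replicate block sqh had a limma adjusted p of 0.117. Reads aligned to several places, which the near-identical actin genes share, were not assigned to a gene, and they made up 2.27% to 3.16% of the reads in the tsr knockdown samples and 4.80% to 8.60% in the control samples; the part of this in the actin values was not tested. The 10 muscle markers had a median log2 fold change of 0.58, and after scaling to those markers the list median was -0.13, Vinc was at 0.43 (adjusted p = 0.127) and rhea at 0.51 (adjusted p = 0.0786). Without tsr knockdown replicate 1 or without control replicate 3 only 1 gene was higher and 0 lower, and without tsr knockdown replicate 2 or 3 there were 1 and 2 lower genes. The replicate block left 1 higher and 0 lower.

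**Figure D5:**
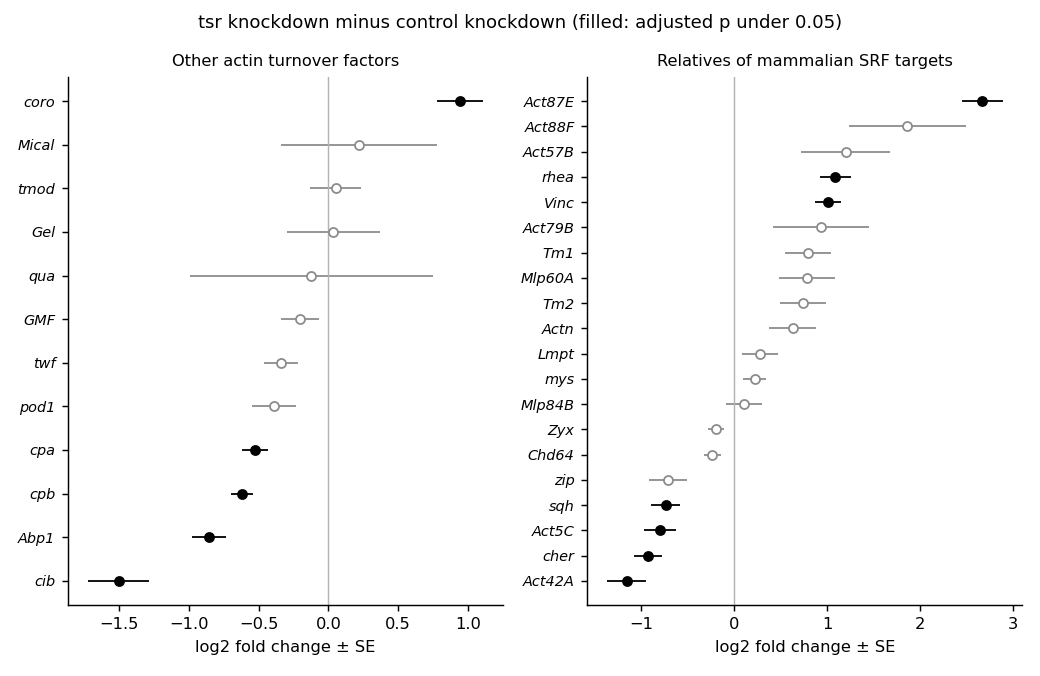
The log2 fold change with its standard error (horizontal axes, tsr knockdown minus control knockdown) of the 12 other actin turnover genes and the 20 relatives of mammalian SRF targets, sorted within each panel. Filled points mark the 5 and 7 genes that passed the threshold, among which Act87E has the largest change at 2.67 and cib the lowest value at -1.51.

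The genes whose levels followed those of tsr, bs and Mrtf most closely were found by Pearson correlation of log2(scaled count + 1) over the 6 samples, among 9664 other genes with a mean of at least 50. With so many genes and 6 points that share libraries and the 2 groups, values near 1 are reached by many genes, and r is given only as a measure of likeness. Closest to tsr were CSN1b, a subunit gene of the COP9 signalosome (r = 0.999), wbl, for an endoplasmic reticulum protein (0.998), Had2 (0.998), the transaldolase gene Taldo (0.997) and Mo25, for a kinase scaffold (0.997). They differed widely in how far they were lower in the knockdown. The gene wbl had 88.7 ± 26.4 scaled counts in tsr knockdown samples and 1159 ± 354 in controls, and CSN1b had 1317 ± 36.7 in tsr knockdown samples and 1773 ± 74.5 in controls (SD, n = 3 each).

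Closest to bs were CG7747 (r = 0.996), CG31103 (0.994) and how (0.992), whose product is an RNA-binding protein of muscle and tendon cells. None of these 3 passed the threshold for a difference between groups by limma. The gene how had 8954 ± 1555 scaled counts in tsr knockdown samples and 11689 ± 533 in controls (SD, n = 3 each; limma adjusted p = 0.132). Closest to Mrtf were melt (r = 0.997), the receptor gene Ir10a (0.996) and CG17807 (0.990), of which CG17807 passed the threshold at a log2 fold change of 0.92 (limma adjusted p = 0.0331). Its call held in 1 of the 6 fits without 1 sample and was lost with the replicate block (adjusted p = 0.0995) and with muscle-marker scaling, where it was at 0.34 (adjusted p = 0.369). The gene melt had 2821 ± 217 scaled counts in tsr knockdown samples and 2034 ± 190 in controls (SD, n = 3 each; limma adjusted p = 0.0533). All 3 of these genes put the 6 samples in the same order as Mrtf. Their groups therefore had to separate with the knockdown higher, as those of Mrtf did, and this adds nothing to the Mrtf result.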

How the data were processed

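RNA was sequenced from 6 muscle-enriched larval lysates, 3 per group, each a pool of 7 to 10 larvae. The authors deposited 1 table of scaled counts, a signal made by dividing each gene's read count by 1 size factor per sample. The submitters' processing notes name STAR 2.5.0a, Picard, HTSeq 0.5.3 and the dm6 build; the annotation release, the strand setting and the method of scaling are not given in the sources used here. Every value above 0 lay within 0.01 of a whole multiple of 1 step per sample (100% of values in each sample), so whole reads could be recovered. The 4 rows that name no gene were left out of all tests; reads aligned to several places made up 2.27% to 8.60% of each sample, ambiguous reads 2.36% to 3.20%, reads outside genes 7.77% to 9.84% and unaligned reads 3.39% to 7.56%.

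The test was limma 3.58.1 in R 4.3.3, lmFit and eBayes with a trend, on log2(scaled count + 1). It ran over the 11720 genes that averaged 10 scaled counts or more, with Benjamini-Hochberg adjustment over all of them and a threshold of 0.05. Single values were compared by exact permutation tests in SciPy 1.17.1. The alternatives were pseudocounts of 0.5 and 5, no filter, a minimum mean of 50, 4 other scalings, edgeR 4.0.16 and DESeq2 1.42.0 on the recovered reads, a replicate block, array quality weights, each sample left out, and, chosen after seeing the data, control replicates 1 and 3 left out together. The fits were tested on simulated counts with the same dispersion for every gene and no sample set apart. The controls here were less even than that, so the simulation does not cover their spread. Exon lengths and overlaps came from the Ensembl annotation in dm6 coordinates. The 9 genes and the gene lists were chosen with earlier results of these data known. Genes named beyond the 9 were up to 6 called genes per list by smallest p-value, genes annotated as overlapping a member, and the genes most like tsr (5), bs (3) and Mrtf (3) by Pearson correlation over the 6 samples at a mean of at least 50; sqh was added after its value was seen. No p-value was given for any list. A further list of pathway genes is not reported here. Mapping by title used all 6 columns.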

Additional observations from a re-analysis of the deposited data

How the results depend on the processing

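The tsr decrease passed the threshold in all 13 alternatives (-2.88 to -2.12) and in all 6 fits without 1 sample (-2.43 to -2.13). Mrtf was the only higher call among the 9 genes, and 0 were higher with no filter, TMM, equal totals, muscle-marker scaling, edgeR, the replicate block, or any sample left out (0 to 0), or with control replicates 1 and 3 both left out, an alternative chosen after seeing the data. Lower calls among the 9 numbered 4 with muscle-marker scaling (tsr, chic, bs and flr) and 2 with DESeq2 (tsr and chic). They numbered 2 without both controls (tsr and cdi), but that fit had 1 control sample, the high one for cdi, which was assumed to vary like the knockdown samples, so its counts are no support for a call. Muscle-marker scaling reversed ssh (-0.37), capt (-0.48), Mrtf (-0.10), melt (-0.11) and IntS1 (-0.51); array weights reversed IntS1 (-0.015); upper-quartile scaling reversed LIMK1 (0.065). LIMK1 was 0.084 without control replicate 2 and 0.022 without control replicate 3, within -0.19 to 0.08 over the single omissions; cdi was 0.13 without control replicate 2 (-0.75 to 0.13), flr 0.043 without control replicate 1 (-0.18 to 0.043), and the cdi to LIMK1 log2 ratio difference 0.049 without control replicate 2 (-0.56 to 0.049). Without both controls ssh was -0.071 and flr 0.084.

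Over the whole table, higher and lower calls numbered 181 and 2054 with muscle-marker scaling, 1271 and 1604 with DESeq2, 1031 and 1140 with array weights, and 929 and 857 without both controls; single omissions gave 41 to 2222 higher and 144 to 887 lower. Turnover genes higher numbered 0 with muscle-marker scaling and without both controls; single omissions gave 0 to 1 higher and 0 to 4 lower. SRF target relatives higher numbered 6 with equal totals, 1 with muscle-marker scaling and 7 with DESeq2, and lower 7 with DESeq2 and 2 without both controls; single omissions gave 1 to 4 higher and 0 to 3 lower.

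Replicate numbers are shared between groups. The deviations of same-numbered samples from their group means correlated at -0.46, -0.032 and 0.19, beside a mean of 0.046 for different numbers. With 3 samples a group these values cannot show whether same-numbered samples belong together. The main fit did not treat them as pairs, and the replicate block is given as an alternative. The replicate block left 24 higher and 88 lower genes in the table, tsr at an adjusted p of 0.0266 by limma, 0 turnover genes higher and 1 lower, and 1 SRF target relative higher and 0 lower. Limits: 3 samples a group cannot reach an exact p below 0.1, the controls differed among themselves, and intervals cover the spread of these samples, whose reads carried no molecular identifiers.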
